A study of Mus musculus with 4 samples.

Results

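Lactotrophs are the prolactin-secreting cells of the anterior pituitary, and those described here had no transcript of Npas4 counted. They were chosen by their counts: at least 1000 unique molecular identifiers (UMIs), at most 10% of them mitochondrial, Prl at 8% of UMIs or more, Gh under 10%, Pomc and Cga each under 1%, and 0 UMIs of Npas4. The rule held for 2227 of 40406 barcodes, which is 5.95% of the 37423 barcodes that passed the UMI and mitochondrial limits (exact 95% interval 5.71% to 6.20%) and 33.1% of all 6733 lactotrophs. The 4506 lactotrophs with at least 1 Npas4 UMI are called Npas4-positive. The other hormone classes used for comparison were 14868 somatotrophs, 1833 corticotrophs, 712 melanotrophs, 695 gonadotrophs and 390 thyrotrophs, each chosen by its own hormone genes. A class of 437 barcodes rich in both Gh and Prl, of which 73.0% were called doublets, is given beside them.

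The data are droplet-based single-cell 3′ RNA counts from whole pituitaries of male mice, in 4 libraries: 2 of high-fat diet (HFD) males and 2 of normal diet (ND) males. Feeding began at an age of 4 weeks and lasted 12 weeks, and 3 pituitaries were pooled for each library. The glands were minced and digested with enzymes at 37 °C for 1 h, and no allele, transgene or drug is named in the labels. The labels also give a gonadotroph identity and the name Lbt2, which is a gonadotroph cell line, to all 4 libraries; the counts held every hormone class and blood vessel and immune cells. All cells came in 1 matrix, whose barcodes end in a number from 1 to 4 that no label or file ties to a library or a diet. HFD and ND lactotrophs were therefore not compared, the barcode numbers are called sets 1 to 4, and values are given pooled and by set without any test. The 4 sets are not known to be replicates of a group, and set ranges are a description of spread. Kept barcodes had a median of 7475 to 8610 UMIs over the sets.

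Prolactin drives milk production and acts on reproduction, metabolism and behaviour. Lactotrophs are unusual among pituitary cells in being active on their own and held back: dopamine from the hypothalamus acts on the D2 receptor (Drd2), which lowers cyclic AMP through inhibitory G proteins and opens potassium channels, so that less prolactin is made and released. Npas4 is a transcription factor gene switched on within minutes by calcium entry in excitable cells. It belongs to the immediate early genes, such as Fos, Egr1, Arc and the Nr4a genes, which need no new protein to be transcribed and which tissue dissociation can also induce.

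Prolactin transcripts made up a median of 23.5% of UMIs in Npas4-free lactotrophs (5th to 95th percentile 9.61% to 48.8%), against 20.05% in Npas4-positive lactotrophs (9.34% to 41.8%). Prl had chosen both groups, so these values describe the choice. Gh stood at a median of 1.08% of UMIs in the Npas4-free cells and 0.924% in the Npas4-positive cells, and at 42.9% in somatotrophs, while Prl in somatotrophs had a median of 0.108%. In T or natural killer cells and endothelial cells, which should lack both hormones, median Gh was 2.29% and 1.38%, and median Prl 0.220% and 0.161%. Gh in lactotrophs and Prl in somatotrophs were thus no higher than this background. At the Prl limit, 69 Npas4-free barcodes lay just inside, at 8% to 9% of UMIs, and 87 lay just outside, at 7% to 8%. At the Gh limit there were 4 barcodes at 9% to 10% and 5 at 10% to 11%. Because the hormone transcripts are so abundant, all further levels are UMIs per 1000000 UMIs (CPM) after the UMIs of the 7 hormone genes (Gh, Prl, Pomc, Cga, Fshb, Lhb and Tshb) were taken out of each total.

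The Prl promoter shows how this lineage is specified: Pou1f1, also called Pit-1, is the homeodomain factor needed for lactotrophs, somatotrophs and thyrotrophs, and it binds sites built on TATNCAT. The 250 bases before the Prl start are printed from RefSeq (GRCm38.p6, chr13:27057320-27057569, + strand), with matches to TATNCAT on either strand in capitals.
Prl: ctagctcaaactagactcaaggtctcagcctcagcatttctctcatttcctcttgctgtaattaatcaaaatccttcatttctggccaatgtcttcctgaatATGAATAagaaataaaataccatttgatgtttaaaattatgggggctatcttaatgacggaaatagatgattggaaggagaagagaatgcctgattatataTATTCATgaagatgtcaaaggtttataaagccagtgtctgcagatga
The window held 2 such matches. Of 27025 genes in the RefSeq promoter table, 9.158% had a match in any of their listed windows of this length. Of the genes at least 2-fold above the other hormone classes described below, 57 were in the table and 3 had one (5.263%). Some genes have several listed windows, and the 27025 include genes with too few UMIs to be tested here. A match is a run of letters, not a measured binding site. Pou1f1 itself was at 821, 684, 707 and 843 CPM in sets 1 to 4 of Npas4-free lactotrophs, against 670, 529, 508 and 569 in somatotrophs. Every lactotroph set lay above every somatotroph set, and the pooled levels were 772 and 567. In thyrotrophs Pou1f1 was at 381 CPM, and in corticotrophs, melanotrophs and gonadotrophs it stayed between 24.5 and 30.9.

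Besides Prl, 5 lactotroph markers were looked at. Edil3 is an integrin-binding matrix protein, Angpt1 the ligand of the endothelial receptor Tie2, and Hepacam2 an immunoglobulin-family adhesion protein. Agtr1a is the angiotensin II type 1a receptor, and Slc17a8 the vesicular glutamate transporter VGLUT3. Angpt1 was at 424, 397, 386 and 444 CPM in sets 1 to 4 of Npas4-free lactotrophs, against 12.9 to 22.7 over the sets in thyrotrophs, the next class. The sets did not overlap, and the pooled level of 414 (exact Poisson 95% interval 402 to 427, counting error only) was 21.4-fold that of thyrotrophs. Hepacam2 was at 318 to 356 CPM over the sets in Npas4-free lactotrophs, against 15.1 to 23.7 in thyrotrophs, 17.9-fold pooled. Edil3 was at 290 to 350 against 23.0 to 57.6 in thyrotrophs, 7.90-fold pooled. Slc17a8 was at 76.8 to 93.7 in Npas4-free lactotrophs and at 0 to 7.87 in thyrotrophs, with pooled levels of 83.6 and 4.18. Without set 2 its pooled fold was 31.9, against 16.1 to 18.9 when another set was left out. Agtr1a was at 149 to 172 in Npas4-free lactotrophs and at 21.6 to 28.1 in corticotrophs, the next class for that gene, which made it 6.35-fold higher. All 5 markers were higher in Npas4-free lactotrophs than in each other hormone class in every set. The markers were chosen with earlier results of these data known, so this describes the cells and is no independent check of the label.

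**Figure D1:**
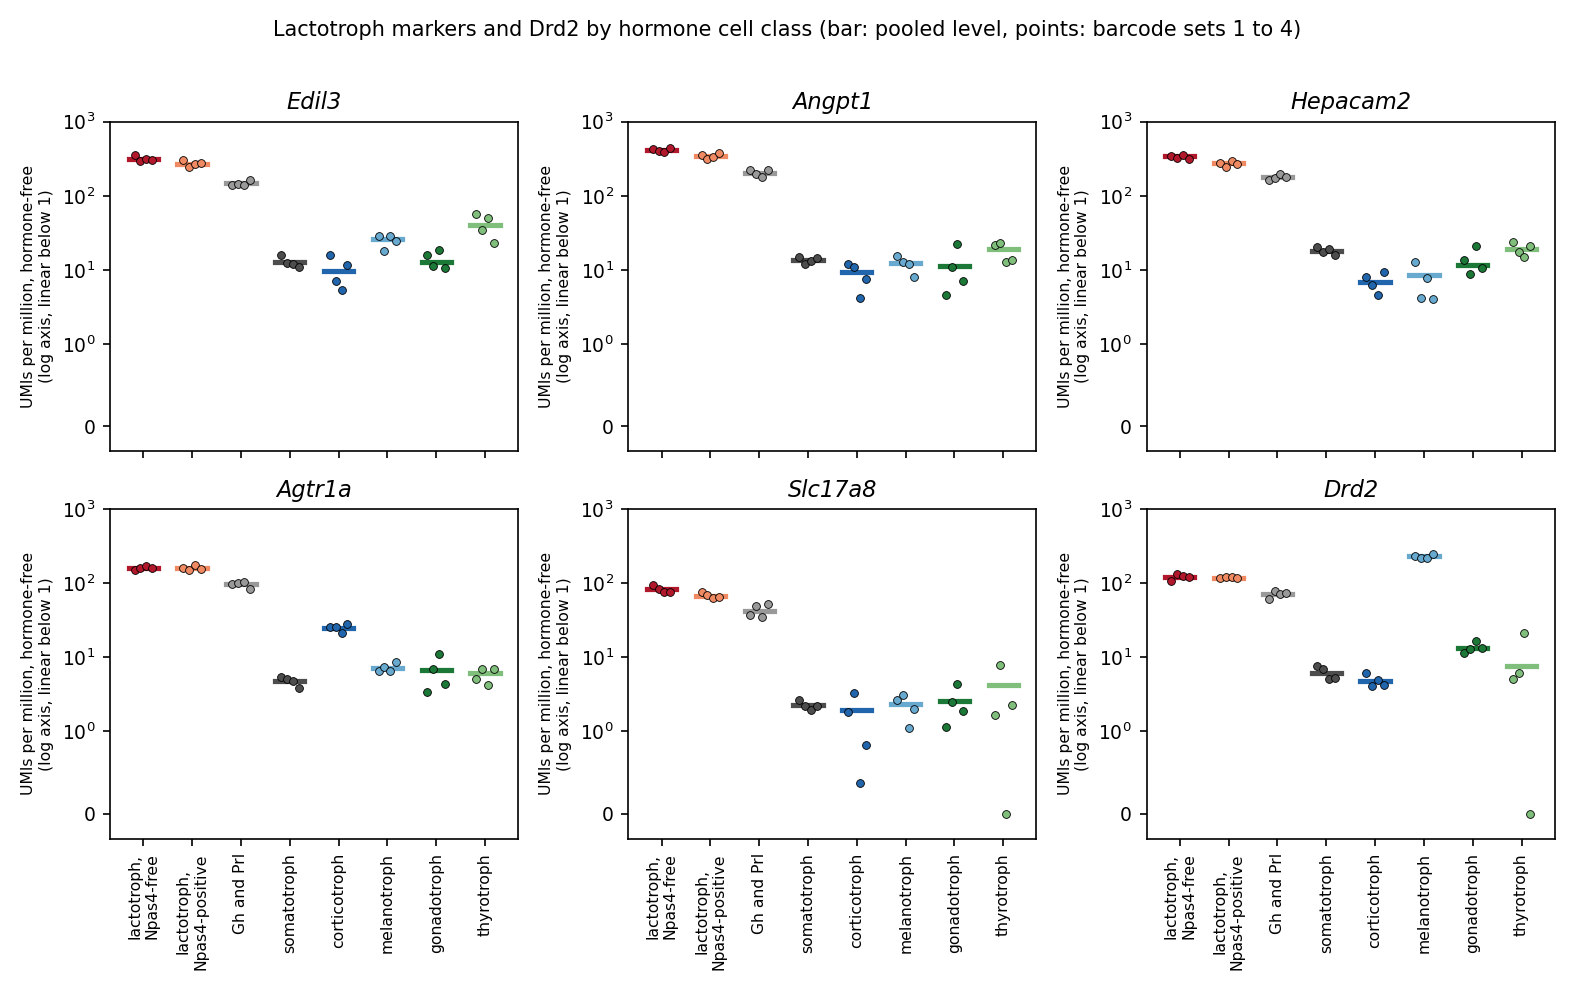
Levels of 5 lactotroph markers and Drd2 by cell class, in CPM without hormone genes on a log axis that is linear below 1. Bars are pooled levels and points are barcode sets 1 to 4; the 5 markers are highest in both lactotroph groups, while Drd2 is higher in melanotrophs.

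The markers were also looked at cell by cell. An Angpt1 UMI was found in 73.3% of Npas4-free lactotrophs (median 6389 UMIs a cell), against 3.02% of T or natural killer cells (median 2177 UMIs), which should lack the gene. With every barcode thinned to 1000 UMIs these shares were 25.3% and 1.40%. Slc17a8 was seen in 29.1% of Npas4-free lactotrophs and 1.16% of T or natural killer cells, or 5.16% and 0.465% after thinning. In endothelial cells (median 4267 UMIs) Angpt1 was seen in 16.1% and Slc17a8 in 3.51%, or 2.63% and 0.389% after thinning. At the Prl limit Angpt1 was at 429 CPM in the 69 barcodes just inside it and at 328 in the 87 just outside, and Hepacam2 was at 343 and 285.

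How many lactotrophs count as Npas4-free depended on depth. Of lactotrophs with at least 1000 and under 2500 UMIs, 60.9% had no Npas4 UMI, and the share fell in each deeper bin, to 12.5% of the 304 lactotrophs with 15000 UMIs or more. Among Npas4-positive lactotrophs the median Npas4 count was 5 UMIs, 915 of 4506 had a single UMI and 3022 had 3 or more. A count of 0 therefore does not show that a cell lacked Npas4 transcripts. Depth also differed between the groups, with a median of 6389 UMIs in Npas4-free and 8044 in Npas4-positive lactotrophs. An Npas4 UMI was counted in 7.21% of T or natural killer cells (median 2177 UMIs) and 14.8% of endothelial cells (median 4267 UMIs).

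**Figure D2:**
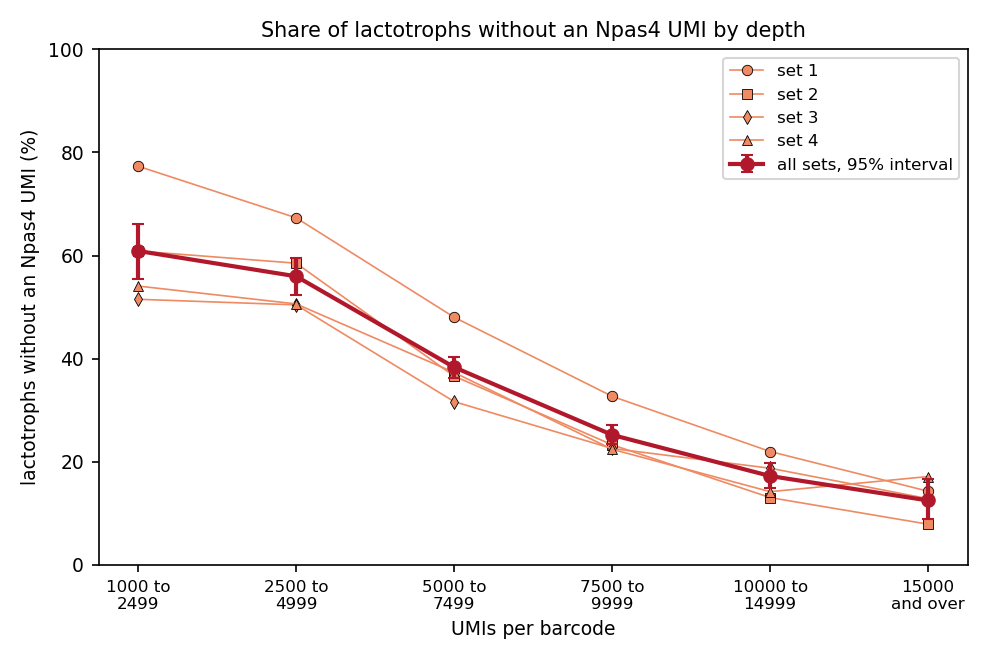
Share of lactotrophs without an Npas4 UMI in 6 bins of UMIs per barcode, for barcode sets 1 to 4 and for all sets with exact 95% intervals. The pooled share falls at each step, starting at 60.9% and ending at 12.5%, and set 1 is highest in the first 5 bins.

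The share was also uneven between sets. Npas4-free cells were 42.0% of lactotrophs in set 1, against 27.7%, 28.8% and 33.1% in sets 2, 3 and 4. In lactotrophs of 5000 to under 7500 UMIs the shares were 48.0% in set 1 and 36.6%, 31.7% and 37.3% in the others, so set 1 stood above at matched depth too. Of all kept barcodes, Npas4-free lactotrophs made up 7.68%, 3.83%, 6.12% and 6.14% in sets 1 to 4.

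Against the 5 other hormone classes, a gene was called higher when its level in Npas4-free lactotrophs was at least 2-fold that of each class in every set. This held for 80 of 11798 genes tested (0.678%), against 79 for somatotrophs (0.67%), 92 for corticotrophs (0.78%), 141 for melanotrophs (1.2%), 176 for gonadotrophs (1.49%) and 52 for thyrotrophs (0.441%) by the same rule. The 25 named genes of largest fold over the next class fell into matrix and vessel factors, receptors and inhibitory synapse genes, adhesion proteins and transporters. These groups were formed after the values were seen, and Prl and Npas4 had chosen the cells, so the counts are a description. None of the 25 was at least 1.5-fold higher or lower than in Npas4-positive lactotrophs.

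Extracellular matrix genes led the list. Cilp, which encodes a cartilage matrix protein, was at 65.3, 45.3, 57.7 and 69.6 CPM in sets 1 to 4 of Npas4-free lactotrophs, against 2.70, 2.10, 1.72 and 1.88 in somatotrophs, a pooled 29.1-fold. Hapln1, a link protein that ties proteoglycans to hyaluronan, was at 53.5 to 67.6 in Npas4-free lactotrophs and 0 to 5.25 in thyrotrophs, 26.6-fold pooled. Both genes had non-overlapping sets. Frem1, a basement membrane protein, was 24.1-fold above somatotrophs, with 44.7 against 1.85 CPM. Hmcn1, or hemicentin 1, a further matrix protein, was 19.9-fold above somatotrophs, with 164 against 8.26 CPM. In a list of 22 matrix genes drawn up after the values were seen, 9 of 17 tested were called higher, among them Thsd7a at 264 CPM in Npas4-free lactotrophs and 47.8 in gonadotrophs. Also called was Loxl1, which crosslinks elastin, at 111 CPM in Npas4-free lactotrophs, 4.43-fold the level in somatotrophs.

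Col1a2, a chain of type I collagen that was listed with the fibroblast markers, was called higher too. It was at 192 CPM in Npas4-free lactotrophs and 86.5 in somatotrophs, and at 179 in endothelial barcodes. The 4 fibroblast markers summed to 224 CPM in Npas4-free lactotrophs (186 to 269 over the sets), against 225 in Npas4-positive lactotrophs (185 to 267), and none was at 0. Col1a2 itself was 192 of the 224 CPM, so this sum is not separate from its level. The part of fibroblast transcripts in the matrix genes' levels was not tested.

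Receptors and synaptic genes formed the next group. Alk, a receptor tyrosine kinase best known in the nervous system, was at 80.7, 66.6, 80.5 and 62.4 CPM in sets 1 to 4 of Npas4-free lactotrophs, against 0, 2.29, 6.78 and 3.35 in gonadotrophs, 23.9-fold pooled. The lowest lactotroph set was above the highest gonadotroph set. Gpr83, a G protein-coupled receptor, was at 26.8 CPM against 2.24 in gonadotrophs. Gabrb2, a subunit of the GABA-A receptor, the chloride channel opened by GABA, was at 21.2 CPM in Npas4-free lactotrophs and 1.34 in corticotrophs. Insyn1, a scaffold of inhibitory synapses, was at 82.8 against 7.35 in gonadotrophs. Akr1c14, whose enzyme makes steroids that act on GABA-A receptors, was at 17.7 CPM with no UMI in thyrotrophs, at least 15.5-fold higher against a floor of 3 counts. For Akr1c14 the fold was 9.09 without set 2 and 9.09 to 12.8 when each set was left out, and it was 7.61 and not called when the other classes were held to Npas4-free barcodes.

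Other subunits of the same receptor were spread over the classes. In a list of 19 GABA-A and inhibitory synapse genes made after seeing the values, 4 of 14 tested were called higher, among them Gabrb2, Insyn1 and Akr1c14. Gabra2 was at 88.5 CPM in Npas4-free lactotrophs and 112 in melanotrophs, and at most 3.80 in the remaining hormone classes. Gabrb1 was at 59.9 in Npas4-free lactotrophs and 196 in somatotrophs. Of the genes of the GABA-making enzymes, Gad2 was at 68.9, 63.9, 72.6 and 57.3 CPM in sets 1 to 4 of Npas4-free lactotrophs, against 71.2 pooled in melanotrophs and 1.70 in somatotrophs, while Gad1 had no UMI in Npas4-free lactotrophs.

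**Figure D3:**
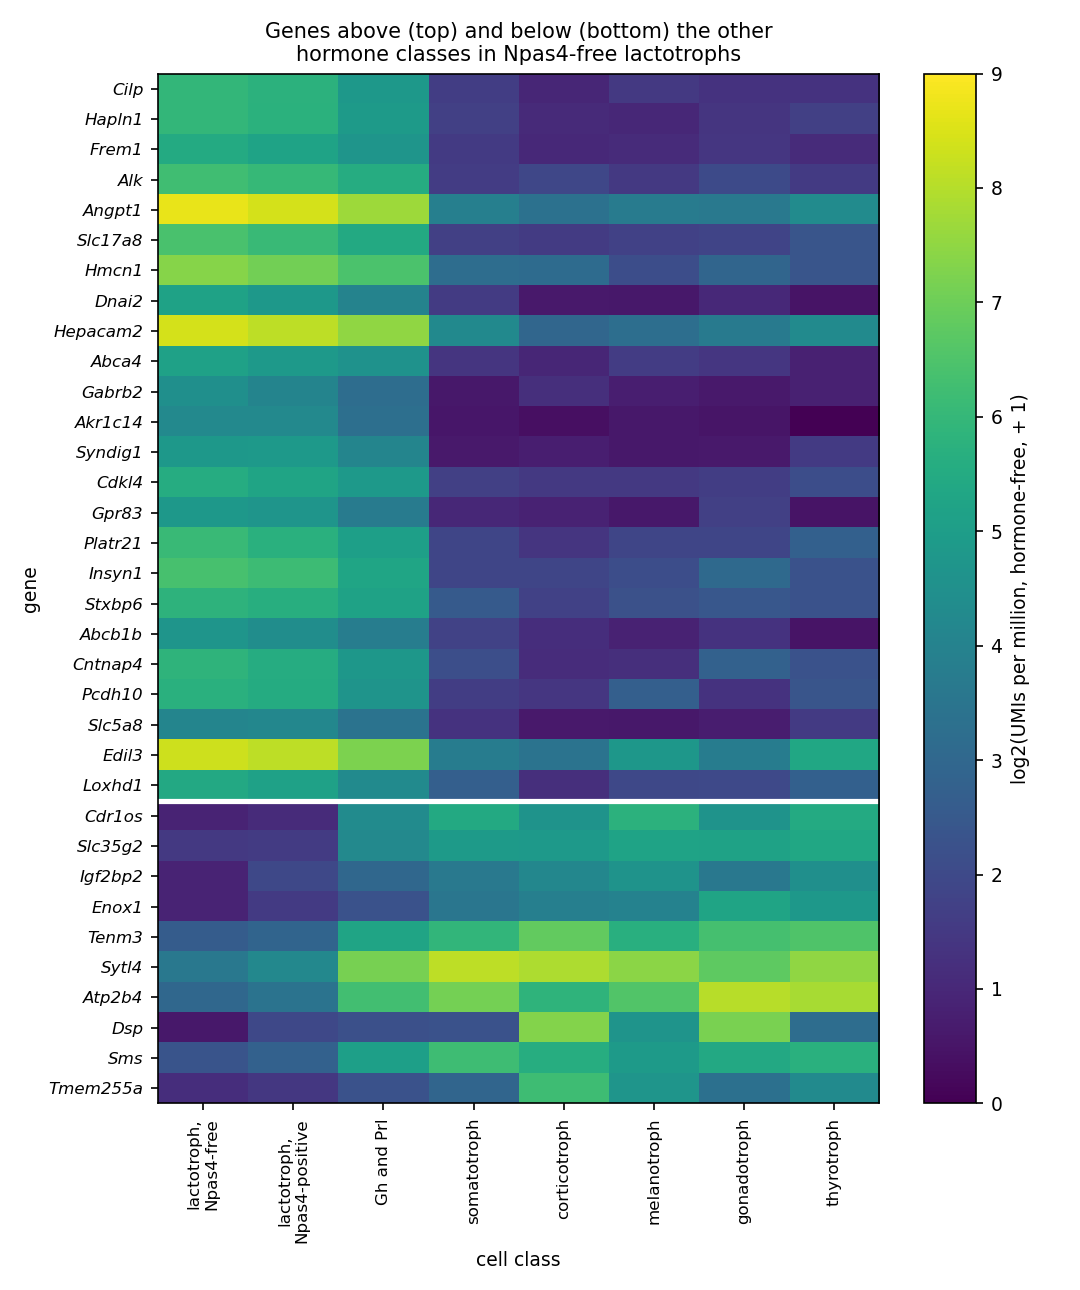
Levels of 24 of the 25 genes of largest fold above (top) and the 10 of largest fold below (bottom) the other hormone classes, as log2 of CPM without hormone genes plus 1. Rows are genes and columns are cell classes; both lactotroph groups share the pattern, and the class rich in Gh and Prl lies between lactotrophs and somatotrophs.

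The remaining named genes were adhesion proteins, transporters and genes of cilia or hair cells. Cntnap4, a neurexin-family protein, was at 56.5 CPM in Npas4-free lactotrophs and 5.86 in gonadotrophs. Pcdh10, a protocadherin, was at 51.4 in Npas4-free lactotrophs and 5.68 in melanotrophs. Stxbp6, which binds the SNARE proteins of exocytosis, was at 55.0 in Npas4-free lactotrophs and 4.91 in somatotrophs. Abca4, a retinoid transporter of photoreceptors, was at 34.7 in Npas4-free lactotrophs and 2.01 in melanotrophs. The others were Abcb1b (P-glycoprotein), Slc5a8 (a monocarboxylate carrier), Dnai2 (a dynein arm subunit of cilia), Loxhd1 (a hair cell protein), Syndig1 (a partner of AMPA receptors), Cdkl4 and the non-coding Platr21, each 7.43- to 17.9-fold over the next class. Abcb1b was at 24.7 CPM in Npas4-free lactotrophs but at 83.5 in T or natural killer cells, so it was higher than in the other hormone classes but not than in those immune cells.

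The other classes had been chosen without regard to Npas4. When they were held to their Npas4-free barcodes (9429 somatotrophs and 222 to 581 barcodes in the 4 smaller classes), 34 of 8479 genes were called higher, all among the first 80, and 11 of the 25 named. The pooled folds of the 25 were then 5.23 to 36.0. This alternative was added after seeing the data.

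Fewer genes were lower in Npas4-free lactotrophs than in the other hormone classes. At least 2-fold below each other class in every set were 30 of 8645 genes (0.347%). Cdr1os, a long non-coding transcript of neurons and endocrine cells, had 9 UMIs in all Npas4-free lactotrophs, 0.860 CPM, against 23.5 in gonadotrophs, the lowest other class, and 53.5 in melanotrophs. Sytl4, or granuphilin, a Rab27 effector that docks secretory granules, was at 13.0, 13.7, 8.54 and 9.55 CPM in sets 1 to 4 of Npas4-free lactotrophs, against 109 pooled in gonadotrophs and 276 in somatotrophs. Rab3b, a small GTPase of granules, was at 44.2 in Npas4-free lactotrophs and 116 in somatotrophs, its lowest other class. Both granule genes were low in all 4 sets. Atp2b4, a plasma membrane calcium pump, was at 6.98 in Npas4-free lactotrophs and 56.6 in corticotrophs. Tenm3, a teneurin adhesion protein, was at 5.16 in Npas4-free lactotrophs and 50.8 in melanotrophs. The adhesion genes Ncam1 and Cadm1 were called lower too, at 99.5 and 93.2 CPM in Npas4-free lactotrophs, against 241 in gonadotrophs for Ncam1 and 271 in somatotrophs for Cadm1.

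The other named genes of this group were Slc35g2, Igf2bp2 (an RNA-binding protein), Enox1, Dsp (desmoplakin), Sms (spermine synthase) and Tmem255a, each 5.36- to 15.6-fold below the lowest other class. For Enox1 the fold was 12.3, and 21.4 without set 4. Sms, for instance, was at 4.11 CPM in Npas4-free lactotrophs and 28.9 in melanotrophs. Ghr, the growth hormone receptor, was at 1.82 CPM in Npas4-free lactotrophs, against 7.14 in somatotrophs and 49.4 in thyrotrophs. Held to Npas4-free barcodes of the other classes, the count was 12 of 4863 genes, with Slc35g2, Enox1, Sytl4 and Atp2b4 among them and Cdr1os still 27.1-fold lower pooled.

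In the dopamine pathway, 28 genes were listed. Of these, 0 of 20 tested were called higher than in the other classes and 0 of 15 tested were called lower. Over all genes tested, 0.678% were called higher and 0.347% lower. At these shares a count of 0 is usual for a list of this size, here and in the lists below. The median log2 ratio of the dopamine list over the mean of the 5 classes was 0.26, against -0.08 over all genes tested. Drd2 was at 108, 132, 125 and 120 CPM in sets 1 to 4 of Npas4-free lactotrophs, and at 232, 221, 222 and 245 in melanotrophs. It was thus lower than in melanotrophs in every set, and above the remaining 4 classes, where it reached at most 13.5. Gnai1, an inhibitory G protein subunit, followed the same order, with 91.6 in Npas4-free lactotrophs, 108 in melanotrophs and at most 7.67 in the other 4. Gnaz, a related subunit, was at 107 in Npas4-free lactotrophs and 79.4 in melanotrophs. The potassium channel gene Kcnj6 was at 54.6 in Npas4-free lactotrophs and 64.3 in melanotrophs.

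Receptors for factors that stimulate prolactin were mostly near background. Of 28 listed, 13 were tested and 1, Agtr1a, was called higher. Trhr, the receptor of thyrotropin-releasing hormone, had 10 UMIs in Npas4-free lactotrophs, 0.956 CPM, against 193 CPM in thyrotrophs. It stood at 0.852 in T or natural killer cells and 2.51 in endothelial cells, so the lactotroph level was within background. Vipr1 and Vipr2, receptors of vasoactive intestinal peptide, had 1 UMI each. P2ry1, a purine receptor, had 25 UMIs, or 2.39 CPM, against 0.0743 to 0.501 in the 5 other hormone classes and 3.39 in endothelial cells.

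For prolactin and oestrogen signalling, 0 of 24 tested genes were called higher and 0 of 16 lower. Prlr, the prolactin receptor, was at 81.0, 78.1, 65.5 and 72.4 CPM in Npas4-free lactotrophs and at 245, 253, 263 and 262 in somatotrophs. All lactotroph sets were below all somatotroph sets. Socs2 and Cish, inhibitors induced by cytokine receptors through Stat5, were at 54.4 and 31.8 in Npas4-free lactotrophs and at 145 and 123 in somatotrophs. Stat5b was at 57.2 and 58.4 CPM in these 2 classes. Esr1, the oestrogen receptor alpha that raises Prl transcription, was at 275 in Npas4-free lactotrophs and 236 in gonadotrophs.

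Among 29 tested lineage factors 1, Six6, was called higher, at 826 CPM in Npas4-free lactotrophs (793 to 864 over the sets) and 358 in melanotrophs (340 to 363). Sox4, a factor of immature cells, was at 565 in Npas4-free lactotrophs and 259 in melanotrophs but was less than 2-fold above them in sets 2 and 4. Rxrg, a retinoid receptor, was at 8.31 in Npas4-free lactotrophs, against 106 in somatotrophs and 166 in thyrotrophs, the 2 classes that share Pou1f1 with lactotrophs. Foxo1 was at 41.5 in Npas4-free lactotrophs and 161 in somatotrophs.

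The secretory granule list had 0 genes called higher and 2 called lower (Sytl4 and Rab3b) of 33 and 30 tested. Chgb, a granin that packs hormone into granules, was at 16707, 15510, 13504 and 15386 CPM in sets 1 to 4 of Npas4-free lactotrophs, against 34878 pooled in thyrotrophs and 1546 in somatotrophs. Scg2 was at 1975 in Npas4-free lactotrophs, against 27438 in gonadotrophs and 422 in somatotrophs. Syt1, a calcium sensor of exocytosis, was at 43.9 in Npas4-free lactotrophs, 44.8 in gonadotrophs and 934 in melanotrophs.

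Of the channel genes 1 of 31 was called higher and 0 of 26 lower, the 1 being Kcnd3, an A-type potassium channel, at 72.9 CPM in Npas4-free lactotrophs and 26.6 in thyrotrophs. Kcnma1, the BK channel, was at 26.2 in Npas4-free lactotrophs and 117 in somatotrophs. Of the transmitter genes Slc17a8 alone was called higher among 14, 0 of 6 were called lower, and the AMPA receptor gene Gria2 was at 313 in Npas4-free lactotrophs, 334 in thyrotrophs and 404 in melanotrophs. Vegfa was at 8.31 in Npas4-free lactotrophs and 215 in gonadotrophs. In the leptin, insulin and IGF list 0 of 19 were called higher and 0 of 11 lower, and Lepr, the leptin receptor, had 3 UMIs in the 2227 Npas4-free cells. Of the oxidative phosphorylation genes 0 of 30 were called higher, 0 of 27 lower and 0 of 30 were highest in Npas4-free lactotrophs, and their median log2 ratio was -0.36.

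The second comparison was with the 4506 Npas4-positive lactotrophs of the same matrix. Because Npas4 split the cells, this describes which genes went with it. At least 1.5-fold lower in every set were 132 of 13669 genes (0.966%), and 19 were at least 1.5-fold higher (0.139%). Immediate early genes made up 28 of the 132: of 45 listed, 42 were tested besides Npas4, 28 were called lower and 0 higher, with a median log2 ratio of -1.15 against 0.04 over all genes.

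Arc, which encodes a synaptic protein that forms capsids, was at 49.6, 104, 129 and 131 CPM in sets 1 to 4 of Npas4-free lactotrophs, against 291, 434, 386 and 464 in Npas4-positive lactotrophs. The groups did not overlap, and the ratio of 0.254 was the lowest of any named gene. Nr4a1, a nuclear receptor gene, was at 287, 276, 486 and 382 in Npas4-free lactotrophs and 1039, 1002, 1236 and 1096 in Npas4-positive lactotrophs, a ratio of 0.327. Its relatives Nr4a2 and Nr4a3 had ratios of 0.310 and 0.309. Fos, an AP-1 subunit, was at 4414, 3833, 4614 and 3986 in Npas4-free lactotrophs, against 10321, 9717, 9845 and 9182 in Npas4-positive lactotrophs, a ratio of 0.436. Egr1 had a ratio of 0.461, Jun 0.434, Junb 0.435, Atf3 0.362 and Klf4 0.359. In each of these genes every Npas4-free set was below every Npas4-positive set.

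Depth and the share of called doublets differed between the groups, so both were held. Among lactotrophs of 5000 to 15000 UMIs (1546 Npas4-free, 3765 Npas4-positive; medians 7319 and 8195 UMIs), 27 of 42 immediate early genes were lower and Arc had a ratio of 0.267. Called doublets were 2.78% of Npas4-free and 5.57% of Npas4-positive lactotrophs, and without them 29 of 41 were lower and the ratio of Arc was 0.244.

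**Figure D4:**
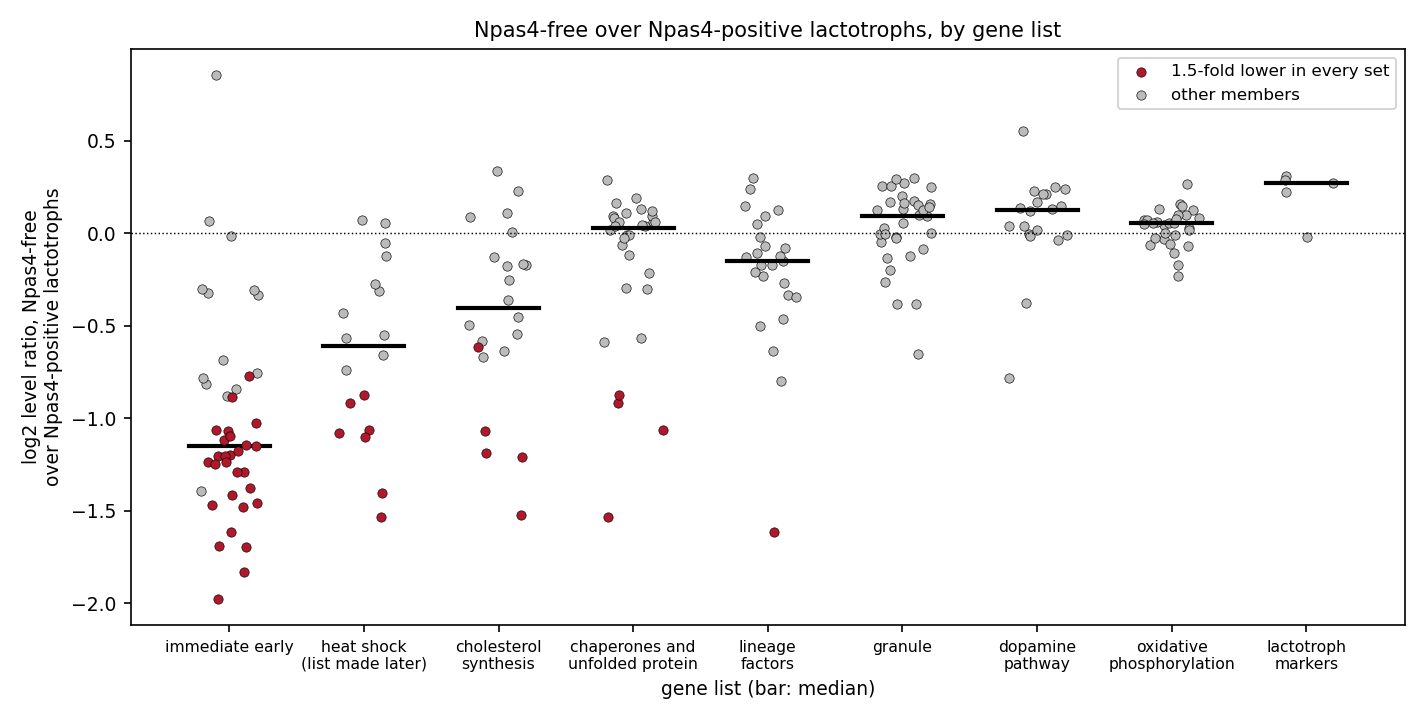
Log2 ratios of levels in Npas4-free over Npas4-positive lactotrophs for the tested members of 9 gene lists. Points are genes, red where the gene was at least 1.5-fold lower in every set, and bars are list medians, which is -1.15 for immediate early genes and -0.61 for heat shock genes.

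Per cell, the 43 immediate early genes besides Npas4 took a median of 0.946% of hormone-free UMIs in Npas4-free lactotrophs (10th to 90th percentile 0.308% to 3.61%), against 3.52% in Npas4-positive lactotrophs (0.976% to 6.39%). The groups overlapped: 243 Npas4-free cells (10.9%) were above the Npas4-positive median. Medians by set were 0.900%, 0.782%, 1.14% and 0.949% in Npas4-free lactotrophs and 3.61%, 3.34%, 3.65% and 3.46% in Npas4-positive lactotrophs. Thinned to 1000 UMIs a barcode, the medians were 7 UMIs in Npas4-free and 27 in Npas4-positive lactotrophs.

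**Figure D5:**
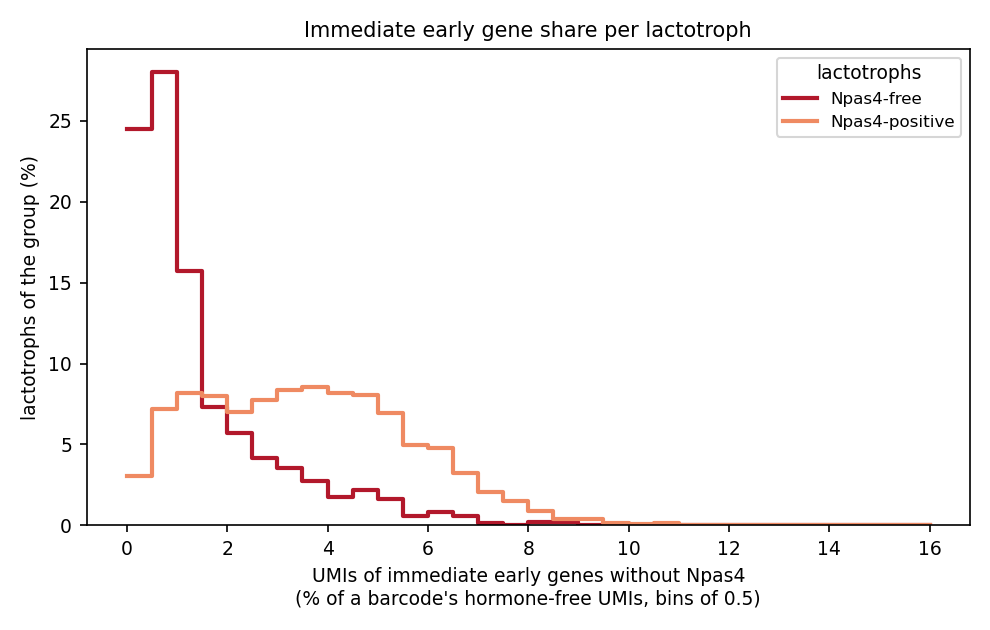
Distribution over cells of the share of hormone-free UMIs that came from 43 immediate early genes without Npas4, in bins of 0.5%, as percent of each lactotroph group. Npas4-free lactotrophs peak below 1% with a tail beyond 3.61%, while Npas4-positive lactotrophs spread around 3.52%.

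Npas4-free lactotrophs were also low in these genes beside the other hormone classes. Of 41 tested, 0 were highest in them, against 15.7% of all genes, and the median log2 ratio over the mean of the 5 classes was -0.85. Held to Npas4-free barcodes in every class, 1 of 38 was highest and the median was -0.41 against -0.04. Fos was then at 4263 CPM in lactotrophs, inside the range of the other classes (1635 in thyrotrophs to 6538 in corticotrophs), and Nr4a1 at 361, inside 139 to 636. Egr1, at 1566, was below all the other classes, which ran from 1678 in melanotrophs to 4175 in somatotrophs. Egr3, the 1 immediate early gene called below all other classes at 9.94 against 25.9 in somatotrophs, was no longer called, at 9.94 against 13.2 in Npas4-free thyrotrophs.

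Promoters of genes that were lower in Npas4-free lactotrophs were searched for TGACG, the core of the cyclic AMP response element (CRE) that CREB binds. CREB is a factor that dopamine signalling restrains through cyclic AMP, and the part of this signalling in the Npas4 split was not tested. Nr4a1 was among the lower genes, whereas Npas4 had split the cells and was not among the genes tested. The 250 bases before the start of each are printed from RefSeq (GRCm38.p6), with TGACG on either strand in capitals. They lie at chr19:4989972-4990221 (- strand) for Npas4 and chr15:101266596-101266845 (+ strand) for Nr4a1.
Npas4: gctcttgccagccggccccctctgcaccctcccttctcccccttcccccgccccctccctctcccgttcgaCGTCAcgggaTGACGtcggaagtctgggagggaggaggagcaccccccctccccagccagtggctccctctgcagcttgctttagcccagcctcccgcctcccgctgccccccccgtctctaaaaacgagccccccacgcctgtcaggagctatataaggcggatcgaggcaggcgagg
Nr4a1: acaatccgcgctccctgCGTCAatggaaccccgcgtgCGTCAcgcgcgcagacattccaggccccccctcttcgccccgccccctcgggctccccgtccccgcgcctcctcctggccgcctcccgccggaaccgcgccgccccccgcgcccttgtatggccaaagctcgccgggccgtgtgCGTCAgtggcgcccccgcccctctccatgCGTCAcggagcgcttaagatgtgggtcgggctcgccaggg
The Npas4 window had 2 matches and the Nr4a1 window 4. Of the 132 lower genes, 89 were in the table and 42 held TGACG in any listed window (47.191%). This compares with 19.785% of all 27025 genes and 8 of 57 genes above the other hormone classes (14.035%). The 27025 include genes with too few UMIs to be tested here, and the share over tested genes alone was not counted. Windows of the lower genes were richer in G and C, with a median of 64.8% against 52.4% over all genes, and the part of base composition in these shares was not tested. The full element TGACGTCA, which contains TGACG, was in 9 of the 89 (10.112%) and in 1.769% of all genes. These are letter matches and show no binding.

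Other lower genes included heat shock and cholesterol genes. Dnajb1, a partner of the chaperone Hsp70, was at 444, 780, 709 and 624 CPM in sets 1 to 4 of Npas4-free lactotrophs and at 1409, 2260, 1649 and 1867 in Npas4-positive lactotrophs, a ratio of 0.346. Hspa1a and Hspa1b, which encode Hsp70, had ratios of 0.479 and 0.529. Of 18 heat shock genes listed after the values were seen, 7 were lower, against 4 of 30 in the wider list of chaperones and unfolded protein genes. In the cholesterol list 5 of 22 were lower, among them Hmgcs1, Idi1, Cyp51 and Msmo1, with a list median of -0.41. At 5000 to 15000 UMIs 4 of 22 cholesterol genes and 5 of 18 heat shock genes were lower, and without doublets 4 of 22 and 7 of 18. Cyp51 was not called in either setting, with ratios of 0.679 and 0.657, and Hspa1b and Bag3, a partner of Hsp70, were not called at 5000 to 15000 UMIs, with ratios of 0.540 and 0.518. Hmgcs1, an early enzyme of the pathway, was at 69.3 CPM in Npas4-free and 145 in Npas4-positive lactotrophs, and at 114 in gonadotrophs, the lowest of the other hormone classes.

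Irs2, an adaptor of insulin signalling, was lower too, at 104 CPM in Npas4-free and 242 in Npas4-positive lactotrophs. Socs3, which damps cytokine signalling, was at 204 CPM in Npas4-free and 472 in Npas4-positive lactotrophs. Mlf1, Ppp1r3c, which directs glycogen storage, and Slc4a4, a bicarbonate carrier, had ratios of 0.271, 0.278 and 0.364. Slc4a4 was not called at 5000 to 15000 UMIs, with a ratio of 0.398, or without doublets, with a ratio of 0.536. Zfp36, which speeds decay of unstable transcripts, and Egr4 had ratios of 0.358 and 0.281. H2-Q5 had a ratio of 0.364 on 22 UMIs in Npas4-free lactotrophs, and as it has near-identical neighbours its counts are uncertain. Called in either direction were 0 of 20 dopamine pathway genes, 0 of 33 granule genes, 0 of 29 oxidative phosphorylation genes and 0 of 5 markers. Over all genes 0.966% were called lower and 0.139% higher, so counts of 0 are usual for lists of this size. Without doublets 1 of 19 dopamine pathway genes was called lower, Rgs2, a regulator of G protein signalling, at 185 CPM in Npas4-free and 332 in Npas4-positive lactotrophs. Drd2 was at 120 CPM in each group.

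Rgs5, a pericyte marker, was at 9.56 CPM in Npas4-free and 29.5 in Npas4-positive lactotrophs. Both pericyte markers together summed to 11.3 CPM in Npas4-free lactotrophs (1.64 to 18.7 over the sets) and 32.4 in Npas4-positive lactotrophs (19.9 to 47.2). Most of each sum was Rgs5 itself, so the sums are not separate from its level. Rgs5 was no longer called at 5000 to 15000 UMIs, with a ratio of 0.803, or without doublets, with a ratio of 0.301. Stem cell markers summed to 26.5 CPM in Npas4-free lactotrophs against 48.1 in Npas4-positive lactotrophs, and Aldh1a2 among them was called lower, with a ratio of 0.487. It was not called at 5000 to 15000 UMIs, with a ratio of 0.674, or without doublets, with a ratio of 0.603. Endothelial markers summed to 87.5 (61.2 to 106) in Npas4-free and 99.9 (82.6 to 125) in Npas4-positive lactotrophs. No listed marker of these types was at 0 in either group, and their part in the levels of Rgs5 and Aldh1a2 was not tested.

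Only 8 of the 19 higher genes had a gene name, the rest being gene models. Fyb, an adaptor of immune cells, was at 13.3, 18.6, 12.8 and 11.1 CPM in sets 1 to 4 of Npas4-free lactotrophs and 4.60, 9.57, 4.07 and 6.24 in Npas4-positive lactotrophs, a ratio of 2.28. Ly86, which B cells and macrophages express, had a ratio of 2.11 on 79 UMIs in Npas4-free cells. Without doublets Fyb was still called, with a ratio of 4.13, and Ly86 was not called, with a ratio of 4.54. At 5000 to 15000 UMIs Ly86 was not called either, with a ratio of 2.64. The 4 macrophage markers summed to 117 CPM in Npas4-free lactotrophs (81.1 to 157 over the sets), against 80.1 in Npas4-positive lactotrophs (61.9 to 112), and none was at 0. Without doublets 3 of these 4 markers were called higher in Npas4-free lactotrophs, C1qa, C1qb and Aif1, with ratios of 2.26, 3.07 and 2.12. Their part in the levels of Fyb and Ly86 was not tested.

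Mir100hg and Miat, long non-coding RNAs, had ratios of 1.85 and 1.60. Mir100hg was at 80.4, 73.2, 63.0 and 79.2 CPM in Npas4-free lactotrophs and at 38.6, 39.6, 39.4 and 42.5 in Npas4-positive lactotrophs, without overlap. At 5000 to 15000 UMIs neither was called, with ratios of 1.75 and 1.58, and without doublets Miat was not called, with a ratio of 1.59. Selenok-ps1, AI480526, Zfp953 and Mtcp1 were the other 4, at ratios of 1.65 to 1.87. Selenok-ps1 and Mtcp1 were not called at 5000 to 15000 UMIs, with ratios of 1.55 and 1.71, or without doublets, with ratios of 1.76 and 1.60. Selenok-ps1 is a pseudogene whose reads may belong to its parent gene.

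Between barcode sets of Npas4-free lactotrophs, few genes differed by at least 2-fold from all other sets. Of 10174 genes tested, set 1 had 4 lower (Hbb-bs, Hba-a1, Egr4 and Arc) and 1 higher (Il1b), and set 2 had 18 lower, among them Gal and Igfbp3, and 0 higher. Set 4 had 9 higher and 15 lower. Set 3 had 5 lower and 9 higher, led by haemoglobin genes, and its 2 erythroid markers summed to 194 CPM, against 13.3 to 55.7 in the other sets. Gal, the neuropeptide galanin, was at 19.0, 8.74, 32.4 and 22.3 in sets 1 to 4 of Npas4-free lactotrophs. Of barcode sequences, 156 occurred in more than 1 set, and 12 Npas4-free lactotrophs had such a sequence.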

How the data were processed

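The deposited file holds UMI counts per gene and barcode, in 1 matrix of 40406 barcodes and 346690898 UMIs, written by Cell Ranger 8.0.1 per the file headers. Per the submitters' processing notes Seurat was used, for a step they do not name. Which build and annotation were used is not given in the sources used here. No barcode could be tied to a library, so the planned HFD against ND test was not run. Members and gene lists were chosen with earlier results of these data known. Cell classes were set by thresholds on hormone UMIs. Levels are summed UMIs scaled to 1000000 hormone-free UMIs (CPM), and for the split by Npas4 that gene was left out too. Genes needed 100 UMIs in the leading class, or in the lowest other class for lower calls, or over both lactotroph groups. The floor was 3 counts. Intervals are exact 95% Poisson or Clopper-Pearson and cover counting error only. Named genes were the 25 of largest fold above and 10 below the other classes, up to 15 each way in the Npas4 split, up to 5 list members with the highest levels, the immediate early list, markers and hormone genes; gene models without a name were left out, a few named genes are not reported here, and other single genes, such as Egr3, Ghr, Ncam1, Cadm1, Gabra2, Gabrb1, Gad1, Gad2, Rgs2, Irs2, Socs3, Rxrg and Gal, were chosen after their values were seen. Scrublet (scanpy 1.11.5) was run on each set, and called doublets were kept, as the rule has no doublet term. Its automatic threshold failed in sets 1 and 4, which took the mean threshold of the other 2 sets, 0.1535. The call rules were tested on simulated counts. Python 3.11.15 with numpy 2.4.6, scipy 1.17.1 and pandas 2.3.3 was used.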

Additional observations from a re-analysis of the deposited data

How the results depend on the processing

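The share of Npas4-free lactotrophs among kept barcodes (5.95%) was 6.33% without called doublets, 4.30% with Prl at 16% of UMIs or more, 6.86% with Prl at 4% or more, and 5.37% to 6.64% when each barcode set was left out in turn. Genes above the other classes (80) were 16 after thinning to 1000 UMIs, where fewer genes could be tested, 34 with the other classes held to Npas4-free barcodes, 172 on pooled levels alone, and 84 to 93 without each set. Genes below (30) were 3, 12 and 122 under these 3 settings, and 31 to 37 without each set. Genes higher than in Npas4-positive lactotrophs (19) were 30 without doublets, 12 with Prl at 16% or more, 11 with hormone genes in the library size, 8 after thinning, 50 from 30 UMIs, 43 against lactotrophs with 3 or more Npas4 UMIs, and 29 to 44 without each set; only 9 of the 19 were among the 30. The cause of these shifts was not tested. Genes lower (132) stayed within 1.5 times of that count in every setting run, at 151 to 181 without each set. Of the 132 themselves, 70 were still called after thinning, 92 at 5000 to 15000 UMIs and 97 with Prl at 16% or more. At least 104 were still called in each other setting. Of 754 values of 58 named genes, 630 moved by no more than counting error and 123 moved by more without reversing. The 1 that reversed was Rgs5, at a ratio of 1.25 after thinning. The 630 include 58 values at the limit of 30 UMIs and 35 on pooled levels alone, where the pooled folds could not change. Thinning moved 34 values and left 23 within counting error. The limit of 3 Npas4 UMIs moved 12 and left 11. Hormone genes in the library size shifted the median log2 ratio of all genes by -0.16 against the other classes and -0.08 against Npas4-positive lactotrophs. The settings on Npas4-free and pooled levels were added after seeing the data. No paired analysis was possible because the barcodes carry no replicate number from the labels. Depth limits the call of 0 Npas4 UMIs, since the share of such cells fell with UMIs per barcode.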
